A study of Mus musculus with 12 samples.

Results

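Fc receptors are the proteins that bind the constant (Fc) part of antibodies. The genes followed here were Fcgr1, Fcgr3, Fcgr4, Fcer1g, Fcgr2b, Fcer2a, Fcrl1 and Fcgrt, each taken as the row that carries its symbol, which makes 8 of the 19564 genes listed in either of the 2 count tables. All 8 were listed for the dim tdT cells and 6 for the bright tdT cells, where Fcgr1 and Fcer2a had no row, so that no level can be given for these genes in bright tdT cells. The cells were labelled glomerular endothelial cells (GEC) and came from digested glomeruli of 4 month old C57BL/6 mice that were wild type (WT) or Col4a5 -/- (Alport syndrome, AS). Mice of both genotypes carried Tek-cre and a ROSA26 tdTomato reporter (Tek is an endothelial gene, and Cre lines driven by it are known to recombine in part of the blood lineage as well), and cells were gated on size, on being singlets and then on dim or bright tdTomato (tdT). Each of 3 WT and 3 AS mice gave 1 dim tdT and 1 bright tdT library, so that 12 libraries formed 4 groups of 3.

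Counts on genes summed to 11440169 to 15074909 per library. Col4a5, the gene mutated in the AS mice, had 37.7 to 74.3 CPM (counts scaled to a common library size after TMM normalization) in the WT-dim and 1.35 to 3.60 CPM in the AS-dim libraries, whereas in the bright tdT cells the WT (4.76 to 10.1 CPM) and AS (3.05 to 6.66 CPM) libraries overlapped. All 14 endothelial markers looked up, among them Pecam1, Cdh5 and Tek, were listed in both tables, with summed levels of 11131 to 18878 CPM in the bright and 232 to 1409 CPM in the dim tdT libraries. Pan leukocyte markers (Ptprc, Coro1a, Laptm5 and Cd53) were arranged the other way, with 5911 to 10675 CPM in the dim and 24.1 to 95.9 CPM in the bright tdT libraries, so that in every dim tdT library the summed leukocyte markers exceeded the summed endothelial markers, against the label of these cells. In such bulk samples a change in the number of cells of a type and a change in RNA per cell cannot be told apart.

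The classical Fc receptors for IgG fall into activating and inhibitory kinds. Fcgr1 (CD64, the high-affinity receptor), Fcgr3 (CD16) and Fcgr4 signal through the common gamma chain encoded by Fcer1g, whose ITAM motif recruits the kinase Syk, and they are known from macrophages, monocytes, neutrophils and, for Fcgr3, NK cells. Fcgr2b (CD32b) carries an inhibitory ITIM motif, is found on B cells and myeloid cells, and is also known from some endothelia, while Fcer2a (CD23) and Fcrl1 belong to B cells, and Fcgrt encodes FcRn, which pairs with beta-2 microglobulin to rescue IgG and albumin from breakdown in endothelium, podocytes and tubule.

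On GRCm38 (Gencode M21) 4 of the genes lie close together on chromosome 1: Fcgr2b (170958617 to 170976547, minus strand), Fcgr4 (171018920 to 171029761, plus strand), Fcgr3 (171051174 to 171064935, minus strand) and Fcer1g (171229572 to 171234365, minus strand). Fcgr1 (96282909 to 96293969, minus strand) and Fcrl1 (87376387 to 87402934, plus strand) lie on chromosome 3, Fcer2a (3681737 to 3694175, minus strand) on chromosome 8 and Fcgrt (45092990 to 45103851, minus strand) on chromosome 7. All 8 are annotated as protein-coding. Fcgr2b is overlapped by the antisense gene Gm38204 and Fcgrt by the antisense gene Gm45669, and since the strand that was counted is not given in the sources used here, reads of these pairs may not be separable. Fcgr3 and Fcgr4 each hold a small RNA gene on their own strand, Mir6546 and Gm26110.

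The sequence that Fcgr3 and Fcgr2b have in common is shown because these receptors of opposite sign are the closest pair among the 8 genes in coding sequence. In the coding sequences of Gencode M21, Fcgr3 (801 bases) and Fcgr2b (1020 bases) share an identical run of 129 bases, from base 263 of the Fcgr3 and base 278 of the Fcgr2b coding sequence, and 22.1% of the 50-base windows of Fcgr3 and 17.1% of those of Fcgr2b occur unchanged in the other. The paired reads of this study were longer than this run, so that an untrimmed read pair reached beyond it, and how trimmed reads inside it were placed was not tested. Between all other pairs of the 8 genes the longest shared run was 14 bases.
Fcgr3 and Fcgr2b, shared coding run, 5′ to 3′: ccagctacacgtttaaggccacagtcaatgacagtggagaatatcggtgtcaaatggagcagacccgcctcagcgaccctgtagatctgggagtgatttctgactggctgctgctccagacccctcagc
The 250 bases before the annotated start of Fcgr1 are shown because this was the gene with the largest log2 fold change of AS over WT among the 8 in dim tdT cells (RefSeq, GRCm38.p6, chr3:96293970-96294219, minus strand, printed 5′ to 3′ along the gene). Capitals mark a match to TTCNNNGAA, the form of STAT elements known from interferon-induced genes, 109 bases before the start, and a match to GAGGAA on the other strand, the core of elements for the myeloid and B cell factor PU.1, 55 bases before it.
Fcgr1, upstream sequence: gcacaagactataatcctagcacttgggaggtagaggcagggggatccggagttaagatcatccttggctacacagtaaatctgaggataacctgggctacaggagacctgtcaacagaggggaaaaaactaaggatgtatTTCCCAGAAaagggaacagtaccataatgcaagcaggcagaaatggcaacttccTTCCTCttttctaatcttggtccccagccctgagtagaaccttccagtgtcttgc
Both strands were searched, and the letters of these motifs do not overlap in this sequence. Among 32851 such stretches of the same length, TTCNNNGAA was present in 7.02% and GAGGAA in 23.3%. Of the 8 genes, all found in the RefSeq table, Fcgr1 had the only TTCNNNGAA match, and GAGGAA was also present upstream of Fcgr3, Fcgr4 and Fcrl1. A match is a description of the letters and not of binding.

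To compare levels between genes, RPKM as deposited (reads per kilobase of gene length, scaled to library size) was used, with the deposited gene lengths running from 1261 bases for Fcgr4 to 11224 bases for Fcgr2b. In WT-dim cells Fcer1g stood highest by far at 276 ± 81.5 RPKM (SD, n = 3). Fcgr4 (26.9 ± 7.33 RPKM), Fcrl1 (24.8 ± 9.18), Fcgr3 (21.2 ± 6.14), Fcgr2b (17.2 ± 2.40), Fcgrt (11.5 ± 6.12) and Fcer2a (7.34 ± 2.88) followed, with the libraries of each gene overlapping those of its neighbours in this order. Fcgr1 was lowest at 2.01 ± 0.942 RPKM, and none of its libraries reached those of Fcer2a. In AS-dim cells the order was Fcer1g (345 ± 62.6 RPKM), Fcgr3 (40.5 ± 17.6), Fcgr4 (37.2 ± 12.7), Fcrl1 (29.7 ± 3.58), Fcgr2b (28.1 ± 4.14), Fcgr1 (20.9 ± 14.2), Fcer2a (9.23 ± 3.30) and Fcgrt (6.21 ± 1.75). Neighbours in this order overlapped, except that Fcer1g lay above all others and Fcer2a below Fcgr1, and Fcgr1 ran from 11.5 to 37.2 RPKM. Fcgr2b, Fcgr3 and Fcgr4 ran from 23.4 to 59.7 RPKM in these libraries, so that Fcgr1 was within their range in AS mouse 3 and below it in the other AS mice.

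In bright tdT cells the order was another. Fcgrt led with 13.1 ± 5.46 RPKM in WT and 18.3 ± 2.81 RPKM in AS (SD, n = 3), and each of its libraries lay above every library of the other genes. Fcer1g came next with 2.32 ± 0.449 RPKM in WT and 2.53 ± 0.365 RPKM in AS. Fcgr2b, with 0.919 ± 1.21 RPKM in WT and 0.282 ± 0.174 RPKM in AS, overlapped Fcer1g in WT but not in AS. Mean levels of Fcgr3, Fcgr4 and Fcrl1 lay between 0.0199 and 0.254 RPKM, and their libraries overlapped within each genotype.

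**Figure D1:**
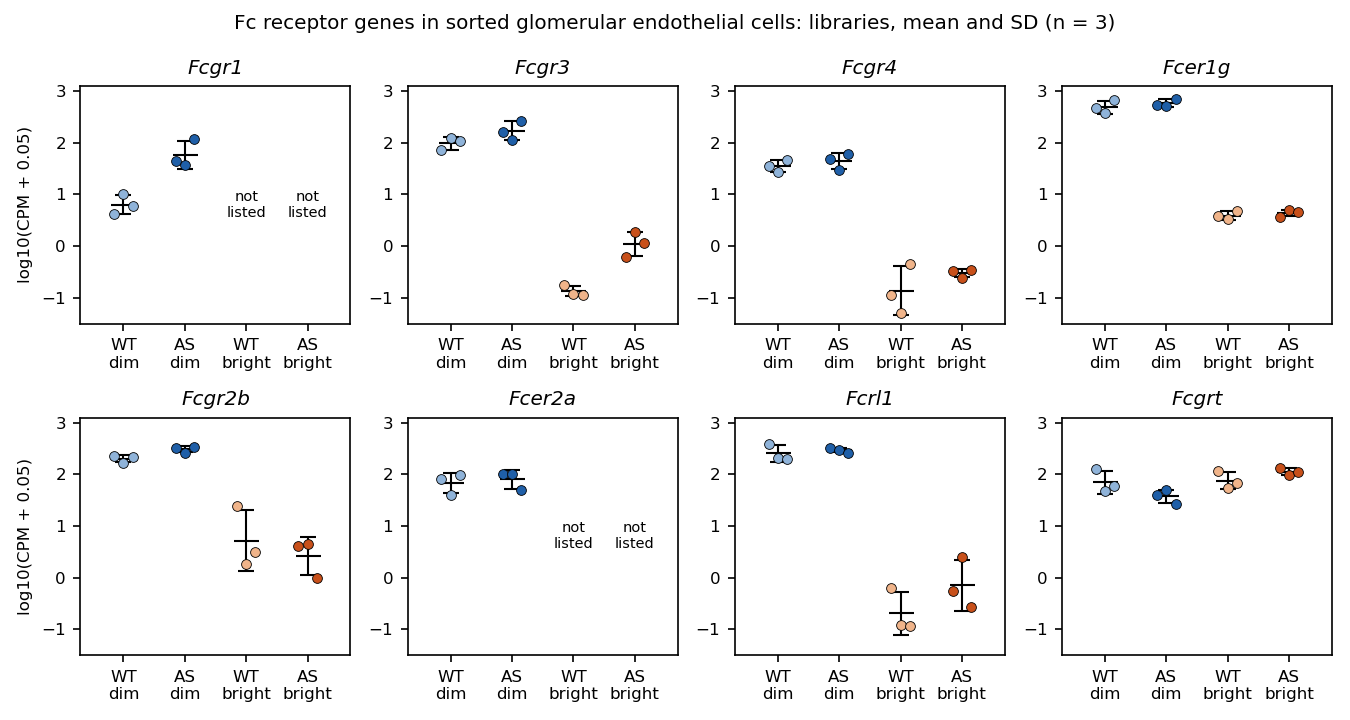
Level of each Fc receptor gene in every library, as log10(CPM + 0.05), in WT and AS mice and in dim (blue) and bright (orange) tdT cells; points are libraries, bars the mean and SD of the log values (n = 3), and "not listed" marks genes with no row in the bright tdT table. Of the 6 genes listed in both tables, all but Fcgrt sit far lower in bright than in dim cells, and Fcgr1 is the gene with the widest gap between WT-dim and AS-dim libraries.

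The comparison of bright with dim tdT cells asks how the sorted subpopulations of the same mice differ. In WT mice the activating receptors Fcgr3 and Fcgr4, the gamma chain, Fcgr2b and Fcrl1 were all lower in bright tdT cells, 5 of the 6 genes that could be tested (11.5% of 14247 genes tested were lower and 13.8% higher). The exception was Fcgrt, with a log2 fold change of 0.14. In AS mice the same 5 genes were lower (26.5% of 14052 genes tested were lower), and Fcgrt was higher in bright tdT cells (28.6% of genes were higher). The dim and bright libraries of the 5 genes did not overlap in either genotype (21.9% of genes tested in WT and 30.9% in AS had such a gap downward), and those of Fcgrt did not overlap in AS (31.4% of genes had such a gap upward, and 20.2% in WT). All 6 genes passed the filter on low counts in these comparisons. Fcgr3, Fcgr4 and Fcrl1 did not pass it among the bright tdT libraries alone, so that they passed here through their dim tdT libraries. Dim and bright libraries were scaled together in these comparisons, and the CPM given here were scaled over all 12 libraries.

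Fcer1g, the gamma chain, had 5326, 4334 and 7845 counts in the WT-dim libraries and 59, 47 and 72 counts in the WT-bright libraries of the same mice. In AS it had 7563, 6298 and 8974 counts in the dim and 52, 77 and 62 in the bright tdT libraries. In both genotypes every dim tdT library lay far above every bright tdT library. The log2 fold change of bright over dim was -6.93 (SE 0.37, adjusted p = 3.64e-06, quasi-likelihood test of edgeR, p-values adjusted by Benjamini and Hochberg) in WT and -7.06 (SE 0.25, adjusted p = 3.16e-08) in AS.

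Fcgr3 and Fcgr4 were close to the limit of detection in bright tdT cells. Fcgr3 had 797, 1438 and 1274 counts in WT-dim against 2, 1 and 1 in WT-bright libraries, a ratio of normalised counts of 1154 (95% counting interval 450.3 to 4238), and the fitted log2 fold change was -9.94 (SE 0.52, adjusted p = 9.74e-07, edgeR's quasi-likelihood test). In AS it had 2290, 1376 and 3369 counts in the dim and 8, 28 and 15 in the bright tdT libraries, a log2 fold change of -7.25 (SE 0.46, adjusted p = 6.37e-07, same test). Fcgr4 had 389, 311 and 545 counts in WT-dim against 1, 0 and 6 in WT-bright libraries, where a count of 0 allows up to 3 counts, and the ratio was 234 (95% counting interval 113 to 583). Of these 7 counts, 6 were in the library of WT mouse 3, and the fitted log2 fold change went from -7.70 (SE 0.71, adjusted p = 1.12e-05, same test) to -9.63 without it. In AS Fcgr4 had 677, 362 and 767 counts in the dim and 4, 3 and 4 in the bright tdT libraries (log2 fold change -7.45, SE 0.46, adjusted p = 1.87e-07, same test). Intervals from counts cover counting error only.

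The inhibitory receptor Fcgr2b had 2510, 1944 and 2608 counts in WT-dim and 389, 26 and 47 counts in WT-bright libraries. The bright tdT library of WT mouse 1 stood above the others but still lay below every dim tdT library. The log2 fold change was -4.26 (SE 0.81, adjusted p = 0.00471, edgeR's quasi-likelihood test), and -6.30 without that library. In AS it had 4666, 3180 and 4305 counts in the dim and 57, 69 and 13 in the bright tdT libraries, a log2 fold change of -6.60 (SE 0.39, adjusted p = 3.77e-07, same test).

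Fcrl1, a receptor-like protein of B cells, had 4367, 2449 and 2367 counts in WT-dim and 9, 1 and 1 counts in WT-bright libraries. Its ratio of dim over bright was 1098 in WT (95% counting interval 613 to 2201), and the fitted log2 fold change of bright over dim was -9.96 (SE 0.60, adjusted p = 2.01e-06, edgeR's quasi-likelihood test), or -11.68 without the bright library of mouse 1. In AS it had 4654, 3581 and 3320 counts in the dim and 7, 38 and 3 in the bright tdT libraries, a log2 fold change of -8.06 (SE 0.45, adjusted p = 2.81e-07, same test), or -9.69 without the bright library of mouse 2, which held most of the reads. Dim and bright libraries of Fcrl1 were apart in both genotypes. The myeloid markers (8 of 10 listed for bright tdT cells) were also lower in bright tdT cells, 8 of 8 in WT and 8 of 8 in AS. So were 5 of 5 B cell markers in each genotype. Over all genes tested, 11.5% were lower in WT and 26.5% in AS. The part of these markers in the result for the Fc receptors was not tested.

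Fcgrt, the FcRn gene, was the only one of the 6 genes that was not lower in bright tdT cells in either genotype. In WT it had 126, 46.4 and 58.1 CPM in the dim and 114, 53.8 and 68.9 CPM in the bright tdT libraries, mouse by mouse. The libraries of both gates overlapped, with WT mouse 1 high in both. The log2 fold change of bright over dim was 0.14 (SE 0.42, adjusted p = 0.832, edgeR's quasi-likelihood test). In AS it had 39.3, 48.9 and 26.8 CPM in the dim and 132, 98.1 and 110.2 CPM in the bright tdT libraries. Every AS-bright library lay above every AS-dim library, with means of 113 ± 17.0 and 38.3 ± 11.1 CPM (SD, n = 3). The log2 fold change was 1.58 (SE 0.24, adjusted p = 0.000316, same test), a 2.99-fold difference. With the mouse as a replicate block it was 1.61 (adjusted p = 0.000198, same test).

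**Figure D2:**
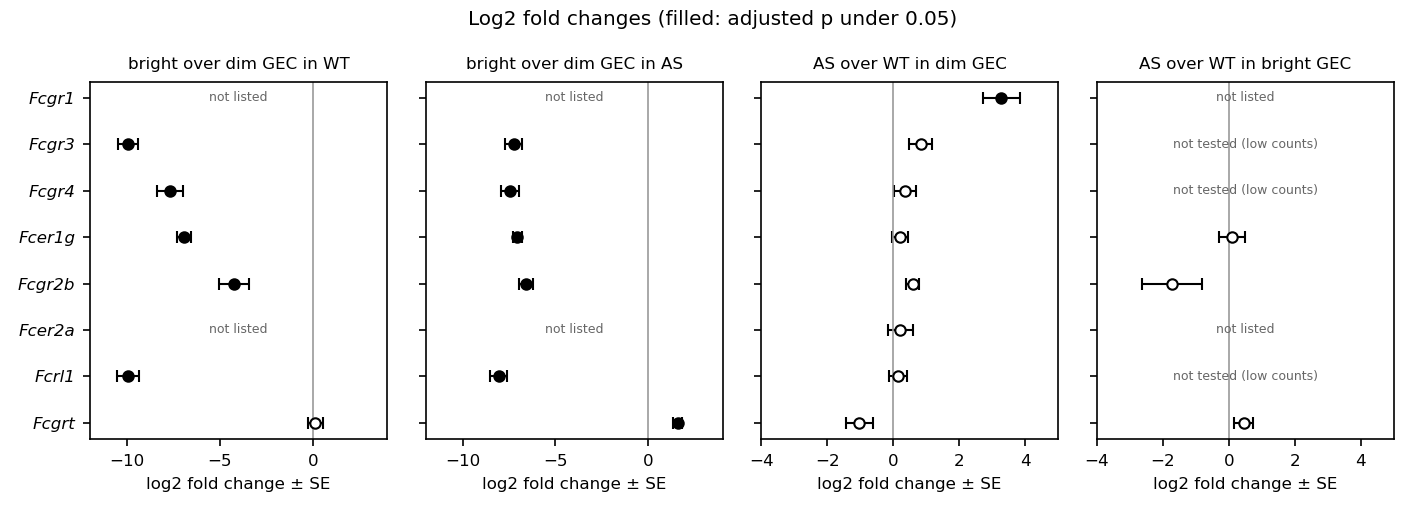
Log2 fold change with its standard error for the 8 Fc receptor genes in the 4 comparisons; filled points had an adjusted p under 0.05 by edgeR's quasi-likelihood test, and grey words mark genes with no row or with too few counts. Bright over dim values run from -9.96 to 1.58, and Fcgr1 at 3.28 in dim tdT cells is the only filled point between AS and WT.

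The comparison of AS with WT asks how the cells of a gate differ between genotypes. In dim tdT cells all 8 genes passed the filter on low counts, and 7 had a positive and 1 a negative log2 fold change, with a median of 0.29 against -0.02 over all 14637 genes tested. Fcgr1 rose, and it was the only one of the 8 to pass the test (2.21% of genes tested were higher and 6.42% lower), while 4 of the 8 had an unadjusted p under 0.05, as did 3844 of the 14637 genes tested. In 2 of the 8 genes, Fcgr1 and Fcgr2b, every AS library lay above every WT library (15.4% of genes tested had such a gap in this direction and 15.9% in the other).

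Fcgr1 (CD64) had 47, 117 and 70 counts in the WT-dim and 617, 445 and 1483 counts in the AS-dim libraries. Scaled, these were 4.20, 10.1 and 5.93 CPM in WT and 43.6, 36.9 and 118 CPM in AS. The lowest AS library was above the highest WT library, and AS mouse 3 was well above the other AS mice. The means were 6.73 ± 3.01 and 66.2 ± 45.0 CPM (SD, n = 3), and the log2 fold change was 3.28 (SE 0.56, adjusted p = 0.0210, quasi-likelihood test of edgeR, p-values adjusted by Benjamini and Hochberg), 9.73-fold. Without the dim library of AS mouse 3 it was 2.57 (adjusted p = 0.107, same test), and without that of AS mouse 1 it was 3.47 (adjusted p = 0.113, same test), so that the call was lost in both cases, while over 13 alternatives with a value the adjusted p ran from 1.05e-07 to 0.113 and passed in 11.

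The other activating receptors did not pass the test in dim tdT cells. Fcgr3 had 71.2, 124 and 108 CPM in the WT and 162, 114 and 268 CPM in the AS libraries. AS mouse 2 lay within the WT range, and AS mouse 3 was again the highest. The log2 fold change was 0.84 (SE 0.34, adjusted p = 0.162, edgeR's quasi-likelihood test). Fcgr4 had 34.7, 26.7 and 46.2 CPM in WT and 47.8, 30.0 and 61.0 CPM in AS (log2 fold change 0.36, SE 0.33, adjusted p = 0.545, same test). Their shared gamma chain Fcer1g had 476, 372 and 664 CPM in WT and 534, 522 and 714 CPM in AS (log2 fold change 0.22, SE 0.24, adjusted p = 0.627, same test). In Fcgr4 and Fcer1g the genotypes overlapped.

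Fcgr2b, the inhibitory receptor, had 224, 167 and 221 CPM in the WT-dim and 330, 264 and 343 CPM in the AS-dim libraries. The groups did not overlap, and the difference was small beside that of Fcgr1. The means were 204 ± 32.1 and 312 ± 42.4 CPM (SD, n = 3), and the log2 fold change of 0.60 did not pass the test (SE 0.20, adjusted p = 0.0957, edgeR's quasi-likelihood test). The ratio of the summed activating receptor counts (Fcgr1, Fcgr3 and Fcgr4) to those of Fcgr2b, which needs no scaling between libraries, was 0.491, 0.960 and 0.724 in WT and 0.768, 0.686 and 1.31 in AS. These ratios overlapped, with a difference of 0.34 on the log2 scale (p = 0.5, exact two-sided permutation test, in which 3 against 3 cannot give less than 0.1).

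Beside these values, markers of myeloid cells were also higher in AS-dim libraries. All 10 were listed, all 10 had a positive log2 fold change and 4 passed the test (among them Csf1r, Adgre1 and Lyz2). Over all genes tested, 2.21% were higher. The 10 markers had a summed level of 2872 to 4876 CPM in WT and 6751 to 8847 CPM in AS. The 4 neutrophil markers (414 to 1838 CPM in WT, 424 to 729.7 CPM in AS) and the 4 NK cell markers (118 to 206 and 128 to 177 CPM) overlapped between genotypes, and none of them passed. The sums of the 6 T cell markers (66.1 to 104 CPM in WT, 138 to 170 CPM in AS) and of the 4 pan leukocyte markers (5911 to 9869 and 9929 to 10675 CPM) did not overlap. As single genes, Cd3d, Cd3g and Coro1a overlapped between genotypes. All of these markers had a positive log2 fold change, with medians of 0.97 and 0.57, but none of them passed the test either. The counts of Fcgr1, Fcgr3, Fcgr4 and Fcer1g together, over those of the 10 myeloid markers, gave ratios of 0.157, 0.185 and 0.169 for the WT and of 0.112, 0.104 and 0.131 for the AS libraries. Every AS ratio lay below every WT ratio, with a difference of -0.56 on the log2 scale (p = 0.1, exact two-sided permutation test, the smallest that 3 against 3 can give). Lyz2, the lysozyme gene of macrophages and neutrophils, held 81.7% to 87.5% of the marker counts. Without it the WT libraries had ratios of 1.25, 1.01 and 1.04 and the AS libraries of 0.698, 0.739 and 1.05. AS mouse 3 then lay among the WT libraries, and the difference was -0.43 on the log2 scale (p = 0.3, exact two-sided permutation test). The part of these markers in the values of the Fc receptors was not tested.

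The B cell genes showed no change that passed the test in dim tdT cells. Fcer2a (CD23, the low-affinity IgE receptor) had 79.3, 40.0 and 95.4 CPM in WT and 99.6, 103 and 49.4 CPM in AS. Fcrl1 had 390, 210.4 and 200.4 CPM in WT and 329, 297 and 264 CPM in AS. For both genes the AS libraries lay within or across the WT range. The log2 fold changes were 0.22 (SE 0.38, adjusted p = 0.767) for Fcer2a and 0.14 (SE 0.28, adjusted p = 0.801, edgeR's quasi-likelihood test) for Fcrl1. None of the 7 B cell markers passed either, and their summed levels were 587 to 1123 CPM in WT and 658 to 1054 CPM in AS. The ratio of Fcer2a and Fcrl1 to these markers was 0.800, 0.378 and 0.263 in WT and 0.502, 0.379 and 0.476 in AS, a difference of 0.06 on the log2 scale (p = 0.9, exact two-sided permutation test).

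**Figure D3:**
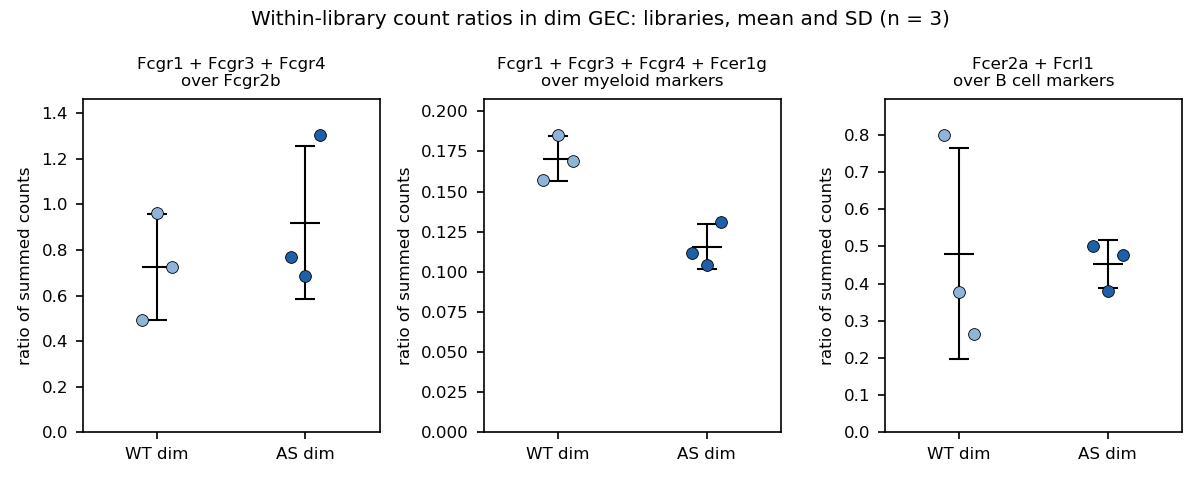
Ratios of summed counts within each dim tdT library of WT and AS mice, for the activating receptors over Fcgr2b (left), the myeloid Fc receptor genes over 10 myeloid markers (middle) and the B cell genes over 7 B cell markers (right); points are libraries, bars the mean and SD (n = 3). The groups overlap in the left and right panels, while the middle panel shows 0.157 to 0.185 in WT above 0.104 to 0.131 in AS.

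Fcgrt went the other way in dim tdT cells, without passing the test. Its 126, 46.4 and 58.1 CPM in WT stood against 39.3, 48.9 and 26.8 CPM in AS. AS mouse 2 overlapped the WT libraries, and WT mouse 1 alone was above 100 CPM. The log2 fold change was -1.02 (SE 0.41, adjusted p = 0.159, edgeR's quasi-likelihood test), and -0.45 without WT mouse 1. The proximal tubule markers (8 of 8 listed) summed to 6356 CPM in the dim library of that mouse against 1359 to 1504 CPM in the other WT-dim and 56.7 to 409 CPM in the AS-dim libraries, and the endothelial and podocyte markers were lower in AS-dim libraries as well, with 232 to 325 against 744 to 1409 CPM and 195 to 239 against 478 to 998 CPM. The part of these markers in the Fcgrt values was not tested.

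In bright tdT cells none of the Fc receptor genes passed the test of AS against WT. Of the 6 genes listed, 3 passed the filter on low counts, and 0 of these 3 were called by edgeR's quasi-likelihood test, by its likelihood ratio test or by DESeq2, with 0 at an unadjusted p under 0.05 (0.188% of 14396 genes tested were higher and 0.264% lower). Fcgrt had 114, 53.8 and 68.9 CPM in WT and 132, 98.1 and 110.2 CPM in AS, with a log2 fold change of 0.45 (SE 0.29, adjusted p = 0.397, edgeR's quasi-likelihood test). WT mouse 1, whose proximal tubule markers summed to 2561 CPM against 385 to 604 CPM in the other WT-bright and 41.0 to 479 CPM in the AS-bright libraries, lay within the AS range. Without it the log2 fold change was 0.84 (adjusted p = 0.103, same test).

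Fcer1g had 3.76, 3.24 and 4.68 CPM in the WT-bright and 3.69, 4.93 and 4.46 CPM in the AS-bright libraries, and the groups overlapped (log2 fold change 0.10, SE 0.40, adjusted p = 0.907, edgeR's quasi-likelihood test). Fcgr2b had 24.8, 1.79 and 3.06 CPM in WT and 4.04, 4.42 and 0.934 CPM in AS. Its log2 fold change of -1.72 (SE 0.91, adjusted p = 0.302, same test) turned to 0.34 (adjusted p = 0.814) without WT mouse 1, the highest library. Fcgr3, Fcgr4 and Fcrl1 were too low for the filter. Fcgr3 had 4 counts over the WT-bright and 51 over the AS-bright libraries, a ratio of normalised counts of 13.3 (95% counting interval 4.90 to 50.8), and every AS-bright library (8, 28 and 15 counts) lay above every WT-bright library (15.5% of the 14396 genes tested had such a gap upward and 9.18% downward). With no filter its log2 fold change was 3.57 (SE 0.79, adjusted p = 0.0731, same test). Fcrl1 had 11 and 48 counts (ratio 4.56, 2.33 to 9.73), of which 38 were in AS mouse 2, and Fcgr4 had 7 and 11 counts (ratio 1.64, 0.581 to 4.99). The myeloid markers in bright tdT cells (8 of 10 listed) summed to 105 to 117 CPM in WT and 133 to 135 CPM in AS. The T cell (2 of 6 listed), NK cell (1 of 4) and B cell markers (5 of 7) each summed to at most 6.73 CPM in any bright tdT library.

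**Figure D4:**
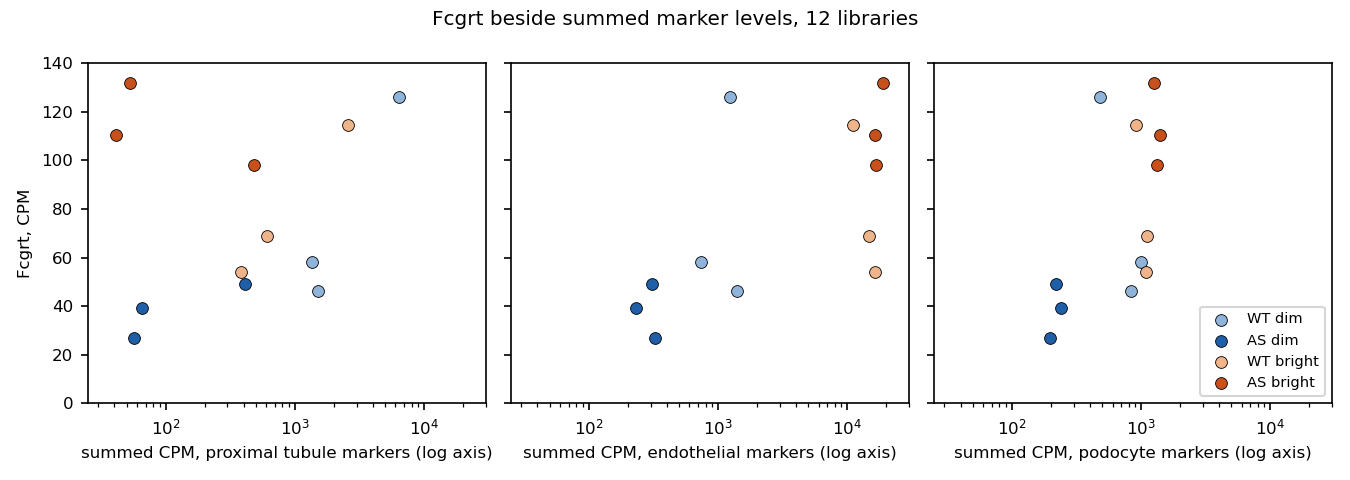
Fcgrt (CPM, vertical axis) against the summed CPM (log axis) of 8 proximal tubule, 14 endothelial and 5 podocyte markers in all 12 libraries, coloured by group. The dim and bright libraries of WT mouse 1, at 126 and 114 CPM, have the highest proximal tubule sums, while the AS-bright libraries reach 98.1 to 132 CPM with tubule sums of 41.0 to 479 CPM.

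Whether the difference between AS and WT itself differed between the gates was tested as the interaction of genotype and gate over all 12 libraries, for the 6 genes in both tables. With edgeR's quasi-likelihood test 0 of the 6 passed, and 3 had an unadjusted p under 0.05, as did 2808 of all genes tested (3% of 15084 genes tested had a higher and 0.815% a lower AS effect in bright tdT cells). DESeq2 and edgeR's likelihood ratio test each called 1, Fcgr3. Fcgrt had an AS effect higher by 1.52 on the log2 scale in bright than in dim tdT cells (SE 0.53, adjusted p = 0.140, edgeR's quasi-likelihood test). With the mouse as a replicate block this was 1.49 and passed (adjusted p = 0.0312, same test), the range of the adjusted p over its alternatives being 0.0312 to 0.305. Podocyte markers (5 of 5, median difference 2.74 on the log2 scale) and endothelial markers (11 of 14, all 14 positive) passed this test in the same direction. In bright tdT cells the podocyte markers summed to 907 to 1104 CPM in WT and 1247 to 1409 CPM in AS, without overlap, and the endothelial markers to 11131 to 16489 and 16341 to 18878 CPM. The part of these markers in the Fcgrt values was not tested. For Fcgr3 the difference was 2.75 (SE 1.04, adjusted p = 0.159, same test, and 0.0417 to 0.424 over its alternatives) and for Fcgr2b -2.26 (SE 0.98, adjusted p = 0.232, same test), the latter being -0.36 without the bright library of WT mouse 1.

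The genes that act with the Fc receptors were taken from lists chosen for their known roles. Of 16 genes of ITAM signalling, the cascade that activating receptors trigger, 5 were higher in AS-dim than in WT-dim cells and none lower. Over all genes tested, 2.21% were higher and 6.42% lower. The list had a median log2 fold change of 0.71, against -0.02 over all genes tested. Among the 5 higher genes were the kinase Syk, the lipid enzymes Plcg2 and Pik3cd, and Cybb, the catalytic subunit of the phagocyte NADPH oxidase. Cybb went from 629 ± 58.8 to 1406 ± 176 CPM (SD, n = 3), a log2 fold change of 1.15 (adjusted p = 0.0185, edgeR's quasi-likelihood test). Syk, the kinase that docks on the gamma chain, had 95.6, 147 and 187 CPM in WT and 351, 302 and 273 CPM in AS, a log2 fold change of 1.10 (adjusted p = 0.0390, same test). For both Cybb and Syk every AS library lay above every WT library. The myeloid markers given above were higher in the same libraries, and their part was not tested.

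The 4 genes of inhibitory signalling downstream of Fcgr2b had positive values, but none passed the test. Inpp5d, the phosphatase SHIP1 that ITIM motifs recruit, had 325 ± 121 and 421 ± 36.7 CPM (log2 fold change 0.36, adjusted p = 0.418, edgeR's quasi-likelihood test). Among other receptors of antibodies, 6 of the 11 in the list could be tested. Of these, 1 was lower in AS-dim cells (6.42% of all genes tested were lower). This was Pigr, the epithelial receptor that carries IgA and IgM across cells, at 7.99 ± 1.64 and 1.28 ± 1.11 CPM (log2 fold change -2.62, adjusted p = 0.0438, same test). Fcmr, the IgM receptor, had 20.5 ± 5.79 and 37.2 ± 10.1 CPM (log2 fold change 0.85, adjusted p = 0.144, same test). B2m, the light chain that FcRn needs, had 1350 ± 128 and 1601 ± 519 CPM (log2 fold change 0.23, adjusted p = 0.577, same test).

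Transcripts of the antibodies themselves were also present in dim tdT cells. Of 8 constant-region genes tested, 2 were higher in AS, both of IgG heavy chains, and none lower (2.21% of all genes tested were higher). Ighg1 had 27, 17 and 3 counts in the WT and 156, 358 and 90 counts in the AS libraries, a log2 fold change of 3.52 (adjusted p = 0.0368, edgeR's quasi-likelihood test). Ighg2b had 20, 3 and 4 counts in WT and 219, 116 and 80 counts in AS, a log2 fold change of 3.72 (adjusted p = 0.0241, same test). For both genes the AS libraries were all above the WT libraries. Ighm, the IgM heavy chain, stood far above them with 833 ± 218 CPM in WT and 1189 ± 256 CPM in AS and did not pass (log2 fold change 0.50, adjusted p = 0.246, same test), nor did Igha at 200 ± 197 and 473 ± 154 CPM (log2 fold change 1.24, adjusted p = 0.258, same test).

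**Figure D5:**
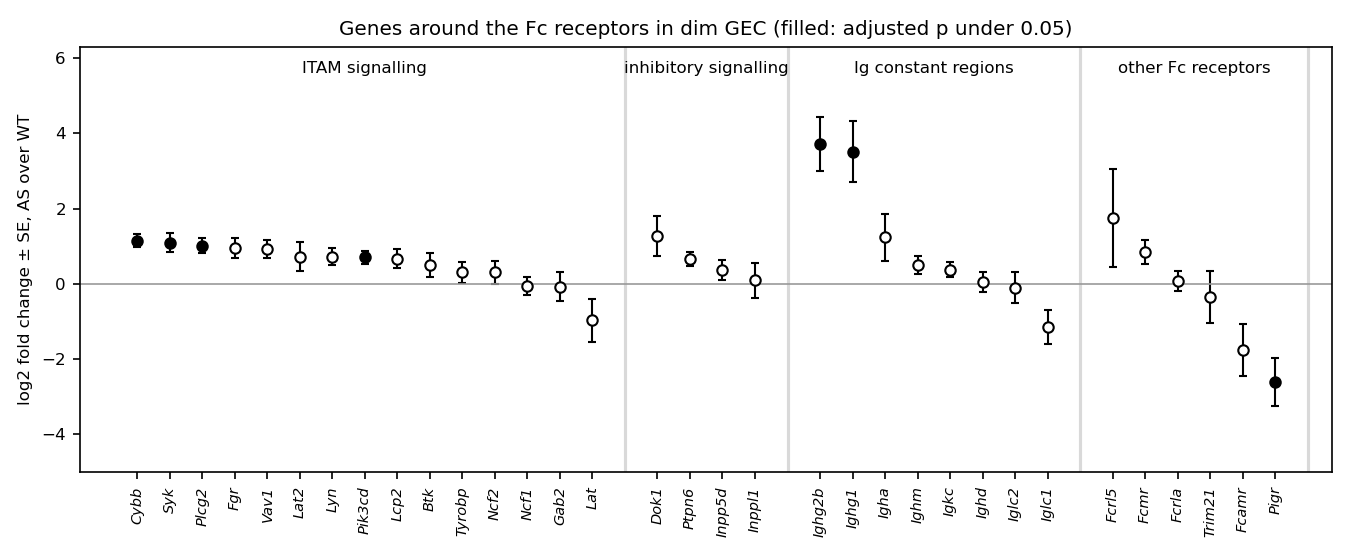
Log2 fold change of AS over WT in dim tdT cells with its standard error for tested genes of ITAM signalling, inhibitory signalling, immunoglobulin (Ig) constant regions and other Fc receptors; filled points had an adjusted p under 0.05. Filled points are Cybb, Syk, Plcg2 and Pik3cd of ITAM signalling, Ighg1 and Ighg2b above 0 and Pigr at -2.62 below it.

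For bright over dim tdT cells the genes that passed were counted in each list, and the lists were not tested against each other. Over all genes tested, 11.5% were lower and 13.8% higher in WT, and 26.5% were lower and 28.6% higher in AS. ITAM signalling genes were lower in 12 of 13 tested in WT and 13 of 13 in AS, and constant-region genes in 4 of 4 in each genotype. Of the 4 genes of inhibitory signalling, 1 was lower in WT, and 2 were lower and 1 higher in AS. Of the other Fc receptors, 3 of 4 tested were lower in WT, while in AS 1 of 3 was lower and 1 higher, the latter being Trim21, an antibody receptor of the cytosol, with a log2 fold change of 2.90 (adjusted p = 0.000307, edgeR's quasi-likelihood test). B2m had 1350 ± 128 CPM in the dim and 1605 ± 33.6 CPM in the bright tdT cells of WT mice. As for Fcgrt in WT, it did not pass the test (log2 fold change 0.33, adjusted p = 0.296, edgeR's quasi-likelihood test). In AS B2m did not pass either (log2 fold change 0.22), whereas Fcgrt did. In the bright tdT cells 0 of 10 ITAM genes tested passed between AS and WT by edgeR's quasi-likelihood test, with 2 of the 10 at an unadjusted p under 0.05, as were 3145 of the 14396 genes tested.

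The genes whose pattern over the libraries was most like that of each Fc receptor were found by the root mean square difference of log2 CPM centred on each gene's mean. Over the 6 dim tdT libraries Fcgr1 was closest to Gm17546 (0.220), 4732419C18Rik (0.384) and Ms4a6d (0.402), and Fcer2a to Fam214a (0.131), Edaradd (0.187) and Pou2af1 (0.188). For the genes in both tables the measure ran over 12 libraries. There the gap between the gates is the main part of the pattern for all of these genes but Fcgrt. Fcer1g was closest to Prkcb (0.261), Csf2rb2 (0.296) and Plek (0.335), Fcgr4 to Coro1a (0.338), Evi2a (0.348) and Fcer1g (0.398), and Fcgr3 to Sh2d2a (0.515), Epsti1 (0.520) and Lsp1 (0.550). Fcgr2b and Fcrl1 had more distant neighbours, F5 (0.651), C3 (0.670) and Mapkapk3 (0.671) for the former and Gzmb (0.529) and Ptprc (0.731) for the latter. Fcgrt was closest to Agtrap (0.265), Sephs1 (0.282) and Tmem242 (0.311).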

How the data were processed

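RNA-seq was done on GEC from 3 WT and 3 AS mice, sorted into dim tdT and bright tdT cells. The authors made stranded poly-A libraries, aligned reads with STAR to GRCm38.p5 with Gencode M16 and deposited unnormalised counts per gene in a table for each subpopulation (17811 dim and 17521 bright genes, 15768 in both). The submitters' processing notes also name FastQC 0.11.5, cutadapt, Trimmomatic, STAR 2.6.0c and edgeR. The deposited RPKM values were computed by the authors and were used here for levels between genes. The authors' log2 fold changes and logCPM, their likelihood ratio score and their p-values with FDR were deposited in the same tables and were not used.

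Groups were taken from the sample labels. The test on counts was the quasi-likelihood test of edgeR 4.0.16, run in R 4.3.3 on genes kept by filterByExpr, with TMM library sizes. P-values were adjusted over every gene in the fit by the Benjamini-Hochberg method, with a threshold of 0.05. ERCC spike-ins (0.0286% to 0.282% of counts) were left out. CPM used full library totals with TMM factors found over all 12 libraries on the genes in both tables. Ratios within libraries were compared by exact permutation tests. Replicate pairs gave a chi-square of 29.5 to 104 per degree of freedom over genes with at least 10 counts, more than sampling noise in all 12 pairs. For AS over WT within a gate, p-values measure the spread between mice. The main fits of bright against dim and of the interaction treated the dim and bright libraries of a mouse as independent. Dim and bright libraries of a mouse share its number in the labels, and their deviations from group means correlated by 0.197 (WT) and 0.213 (AS) on average within a mouse and by -0.0985 and -0.105 between mice. The scripts were tested on simulated counts. Each comparison across genes was repeated with DESeq2 1.42.0, the likelihood ratio test of edgeR, RLE normalization, unscaled library sizes and other filters (every gene with a count, average logCPM above 1) and each library left out. The AS over WT comparisons were also made with all 12 libraries in one fit, those of bright with dim and the interaction with a replicate block, and the ratios with deposited RPKM and with each library left out. edgeR's version 3 fit and the ratio without Lyz2 were added after the data had been seen. The 8 genes, the pathway lists and the markers were chosen with earlier results of these data known. Genes named are these 8, members of the lists and markers, Col4a5, overlapping genes and, for each of the 8, the 3 genes with the most similar pattern. Some genes that this rule would name are not reported here. Comparisons of AS with WT and of bright with dim share libraries and are not independent.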

Additional observations from a re-analysis of the deposited data

How the results depend on the processing

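Of 438 recomputed values for single Fc receptor genes, 419 kept their direction and their side of the threshold, 2 lost the call (Fcgr1 in dim tdT cells without AS mouse 1 or 3), 3 gained it (the Fcgr3 interaction under DESeq2 and the likelihood ratio test, the Fcgrt interaction under the replicate block) and 14 changed sign. DESeq2 gave no adjusted p for Fcgr2b in the interaction and in bright over dim WT cells, where its count of genes called was 4 for that reason. The count of genes called was 1 for AS over WT in dim tdT cells, 0 to 1 when a library was left out and 0 with all 12 libraries in one fit, which holds only genes of both tables and so not Fcgr1. It stayed at 0 in bright tdT cells and at 6 for bright over dim AS cells in all alternatives, and at 5 for bright over dim WT cells with each library left out. The interaction count of 0 became 1 under DESeq2, the likelihood ratio test and the replicate block, and the block changed no other call. The sign changed only when a library was left out. AS over WT in dim tdT cells became -0.0075 (Fcer1g), -0.11 (Fcer2a) and -0.044 (Fcrl1) without WT mouse 2 and -0.03 (Fcrl1) without WT mouse 3, and in bright tdT cells 0.34 (Fcgr2b) without WT mouse 1 and -0.015 (Fcer1g) without WT mouse 2. The highest values over the left-out libraries were 0.47, 0.49 and 0.52 for these 3 genes in dim tdT cells and 0.23 for Fcer1g in bright tdT cells, where Fcgr2b reached -2.21. Fcgrt in bright over dim WT cells became -0.11 and -0.0068 without the dim library of WT mouse 2 or 3 and -0.23 without the bright library of WT mouse 1, and at most 0.67. The interaction became 0.10, 0.09 and 0.04 for Fcer1g without the dim library of AS mouse 3 or the bright library of WT mouse 3 or AS mouse 1, and -0.18 and -0.36 for Fcgr4 without the bright library of WT mouse 1 or 2, the other ends of these ranges being -0.32 and 2.25. The activating to inhibitory ratio ran from 0.05 to 0.57 over the left-out libraries, the myeloid ratio from -0.66 to -0.49 and the B cell ratio from -0.29 to 0.51, negative without WT mouse 2 (-0.03), WT mouse 3 (-0.29) or AS mouse 1 (-0.02). The causes of these changes were not tested beyond the libraries named. With 3 mice a group, differences near the spread between mice could not be called, and 0 to 38 counts per library limit Fcgr3, Fcgr4 and Fcrl1 in bright tdT cells.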
